A study of Rattus norvegicus with 24 samples.

Results

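Gene expression in the nucleus accumbens (NAc) was compared between first-generation (F1) rat pups exposed to oxycodone (oxy) in utero (IUO) and F1 pups exposed postnatally (PNO). A gene was counted as expressed when it had at least 1 FPKM (fragments per kilobase of transcript, scaled to the mapped fragments of the library) in 4 or more of the 8 libraries, which held for 13692 of the 23950 genes listed, and 12065 of these reached 1 FPKM in every library. The pups were Sprague Dawley rats at postnatal day 14 (P14), with 4 libraries per group from separate litters. Pups of either sex could be chosen, and the labels do not say which were taken. F0 dams of IUO pups were gavaged with oxy at 10 mg/kg/day, raised stepwise to 15 mg/kg/day, from before mating until weaning. F0 dams of PNO pups received 15 mg/kg/day from birth of the litter until weaning. Both groups therefore had a dosed mother while nursing and no pup was dosed itself, so the groups differ in exposure before birth, in the preceding exposure of the dam and in its dose escalation, which cannot be told apart. F1 pups of saline-treated dams (SAL, n = 4) and the IUO and PNO pups of the next generation (F2, n = 4 each) were sequenced in the same series and are given beside the F1 values.

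The NAc is the ventral part of the striatum and a hub of the reward circuit. Most of its neurons are GABAergic striatal projection neurons, which receive glutamate from cortex, thalamus and amygdala and dopamine from the midbrain. One set carries the dopamine D1 receptor with dynorphin and substance P, and the other carries the D2 receptor with enkephalin. Opioids act on G protein-coupled receptors that lower cAMP and neuronal excitability, and endogenous opioid peptides come from the precursors encoded by Pdyn, Penk and Pomc.

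All 22 striatal projection neuron markers were expressed in these libraries, with Ppp1r1b and Penk highest. Markers of neighbouring brain regions were also present and moved between the groups, and fewer cells of a type and less RNA per cell cannot be told apart in bulk tissue. Genes were called by a rule with the study's thresholds, an unadjusted p under 0.05 and at least a 1.5-fold difference of mean FPKM. The p came from limma on log2(FPKM + 0.1), whereas the study used edgeR, so the counts are not those of the study. By this rule 610 expressed genes rose in IUO relative to PNO and 317 fell, against 4.28% and 2.80% of all 17306 genes tested. After rescaling the libraries to a common upper quartile the split was 478 higher and 411 lower. After Benjamini-Hochberg adjustment over all genes tested, 19 expressed genes stayed under 0.05, of which 13 were higher and 6 lower in IUO. Over all genes tested the share was 0.133%, with 0.0809% higher and 0.0520% lower. The 4 IUO values lay wholly above the 4 PNO values in 991 expressed genes and wholly below them in 644 (6.26% and 4.20% of all genes tested). The median log2 fold change over the expressed genes was 0.05. Leaving out any 1 library left 2 to 5 genes under the adjusted threshold, and a block for the replicate number left 2. The counts under the rule were 633 without PNO replicate 2, 1233 without PNO replicate 3, 1023 without IUO replicate 1 and 1024 without IUO replicate 4.

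**Figure D1:**
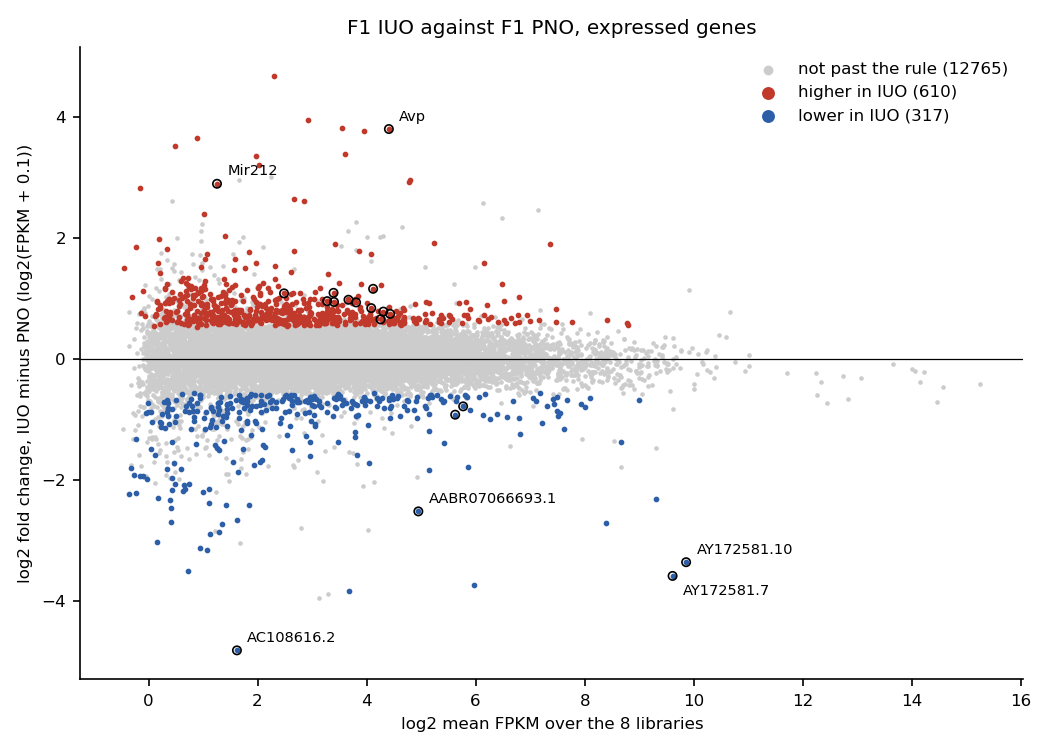
Log2 fold change of IUO minus PNO (y axis, log2(FPKM + 0.1)) against the log2 of the mean FPKM over the 8 F1 libraries (x axis), 1 point per expressed gene. Red points are the 610 genes higher in IUO, blue points the 317 lower, and black rings mark the 19 genes with an adjusted p under 0.05, of which Avp is the highest at 3.80.

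The libraries differed in several ways that the groups do not explain. The 13 mitochondrially encoded genes listed for this purpose took 17.0% to 39.0% of FPKM in IUO libraries and 24.1% to 40.4% in PNO libraries. IUO replicate 4 had the lowest share. IUO replicates 1 and 4 correlated least with the other F1 libraries (median r = 0.915 and 0.925 on the log2 scale, across genes). Markers of the choroid plexus were high in IUO replicate 3 and PNO replicate 3, and hemoglobin genes in IUO replicate 2 and PNO replicate 3. Y-linked genes were high in IUO replicate 2 and PNO replicates 1 and 2, intermediate in IUO replicate 1 and low in the other 4, so each group held libraries both high and low in them. Depth is unknown because the files give FPKM alone, and some zeros may be failed estimates. Mrpl36, a mitochondrial ribosomal protein gene, was listed at 0 in IUO replicates 1 and 4 and lay between 13.9 and 19.3 FPKM in the other F1 IUO and PNO libraries. Of the expressed genes, 11 reached 1 FPKM in every IUO library and in no PNO library, among them Egfr, Traf6 and Il10ra, and 11 did so the other way, among them Npy5r and AC108616.2. Such genes had to differ, and without these 22 the counts were 600 higher and 306 lower by the rule and 18 after adjustment. For 188 expressed genes the fourth-highest value lay from 1 to 1.1 FPKM, and 214 genes fell just short, from 0.9 to 1.

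Each of the 19 genes with an adjusted p under 0.05 was separate between the groups, and those higher in IUO are given first. Grm5 encodes the metabotropic glutamate receptor mGlu5, which couples to phospholipase C and acts in striatal plasticity. It read 17.8, 16.99, 17.5 and 15.2 FPKM in the IUO libraries and 7.82, 7.52, 8.13 and 10.7 in the PNO libraries (log2 fold change 0.98 ± 0.13 SE, n = 4 per group, limma adjusted p = 0.0468). The groups did not overlap, and the SAL libraries, at 9.4, 11.6, 13.1 and 15.3, overlapped both. Elfn2 encodes a synaptic adhesion protein that binds group III metabotropic glutamate receptors. It had 25.8, 24.3, 26.3 and 23.7 FPKM in IUO and 13.6, 13.2, 14.1 and 17.3 in PNO (log2 fold change 0.79 ± 0.11, adjusted p = 0.0468). Lhfpl4 encodes a partner of GABA-A receptors at inhibitory synapses. It had 27.4, 27.6, 29.1 and 24.2 FPKM in IUO and 15.5, 14.3, 17.5 and 16.9 in PNO (log2 fold change 0.75 ± 0.11, adjusted p = 0.0468). Neither Elfn2 nor Lhfpl4 overlapped between the groups. Ppp1r9a, which encodes the actin- and phosphatase-binding spine protein neurabin, averaged 18.4 ± 2.14 FPKM (SD, n = 4) in IUO and 9.58 ± 1.42 in PNO. Strn, which encodes the calmodulin-binding scaffold striatin, averaged 23.4 ± 0.781 and 14.8 ± 1.21 FPKM. Both rose without overlap (log2 fold changes 0.94 and 0.66, both at adjusted p = 0.0477).

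Shc3, the neuronal adaptor that links neurotrophin receptors to downstream kinases, had 20.6, 22.7, 26.4 and 26.4 FPKM in IUO and 8.71, 10.96, 10.2 and 13.1 in PNO (log2 fold change 1.16 ± 0.15, adjusted p = 0.0468). Every IUO library lay above every PNO library by more than the spread within either group. Atxn1, a transcriptional regulator whose polyglutamine expansion causes a spinocerebellar ataxia, had 8.25, 7.47, 7.44 and 7.45 FPKM in IUO and 3.26, 3.71, 3.58 and 3.64 in PNO (log2 fold change 1.09 ± 0.12, adjusted p = 0.0316). Replicates of each group were close to each other and the groups stood well apart. Dnmt3a, which encodes a de novo DNA methyltransferase active in postnatal neurons, had 20.02, 19.9, 23.2 and 24.2 FPKM in IUO and 11.5, 10.9, 12.6 and 13.5 in PNO (log2 fold change 0.84 ± 0.12, adjusted p = 0.0468). The SAL libraries, at 16.9, 15.5, 14.4 and 18.99, fell in the gap between the groups. Ndst1, an enzyme that sulfates heparan sulfate chains, averaged 13.9 ± 1.69 FPKM (SD, n = 4) in IUO and 7.19 ± 0.872 in PNO. Fbln2, which encodes the extracellular matrix protein fibulin-2, averaged 14.3 ± 1.68 and 6.7 ± 1.22, and Lrrc58 averaged 12.8 ± 1.16 and 6.58 ± 0.952. All 3 were higher in IUO without overlap (log2 fold changes 0.95, 1.097 and 0.96, limma adjusted p from 0.0468 to 0.0477).

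The other 6 adjusted genes were lower in IUO. AC108616.2, a locus that the files describe only by a hypothetical protein, had 0, 0.27, 0.09 and 0.2 FPKM in IUO and 4.7, 7.1, 5.15 and 7.11 in PNO. It counted as expressed through the PNO libraries alone, so its values are a description and no p is given. AABR07066693.1, listed as an uncharacterized protein, had 9.29, 10.2, 7.31 and 9.13 FPKM in IUO and 53.9, 64.1, 58.01 and 35.1 in PNO (log2 fold change -2.51 ± 0.19, adjusted p = 0.00356). Both were lower in every IUO library, and the SAL libraries of AABR07066693.1 ran from 6.58 to 56.2 FPKM, across both groups. AY172581.7 and AY172581.10, which have no description in the files, fell by 3.58 and 3.35 on the log2 scale (limma adjusted p = 0.0468 each). AY172581.7 had 277, 143, 68.5 and 63.9 FPKM in IUO, 1268, 1850.0, 916 and 1667 in PNO and 1337, 1569, 141 and 107 in SAL. The SAL libraries thus split, with a pair inside the PNO range and a pair inside the IUO range. Smim26, which encodes a small mitochondrial membrane protein, averaged 34.3 ± 5.68 FPKM (SD, n = 4) in IUO and 64.3 ± 4.995 in PNO. AC095947.1, a copy of the gene for the mitochondrial chaperonin of 10 kDa, averaged 40.2 ± 4.301 and 68.98 ± 7.11 FPKM. Both fell without overlap (log2 fold changes -0.92 and -0.78, adjusted p = 0.0468 and 0.0477), and reads of AC095947.1 may be shared with its near-identical parent gene.

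Further genes were lower in IUO without overlap, of which 4 are given here. Ak6, a nuclear adenylate kinase gene, had 15.6, 26.4, 18.01 and 22.5 FPKM in IUO and 42.2, 41.7, 39.04 and 36.3 in PNO (log2 fold change -0.97 ± 0.16, adjusted p = 0.0695). Clk1, which encodes a kinase of splicing factors, had 31.02, 37.5, 31.9 and 27.2 FPKM in IUO and 47.8, 52.7, 48.9 and 50.5 in PNO (log2 fold change -0.65 ± 0.11, adjusted p = 0.0721). Polr2k, a small subunit gene shared by the nuclear RNA polymerases, averaged 45.1 ± 5.42 and 68.2 ± 3.38 FPKM, and the membrane protein gene Tmbim4, tied to protection from cell death, averaged 24.1 ± 2.56 and 36.9 ± 1.34. These 4 passed the rule and had an adjusted p under 0.1, a limit that 135 expressed genes met.

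**Figure D2:**
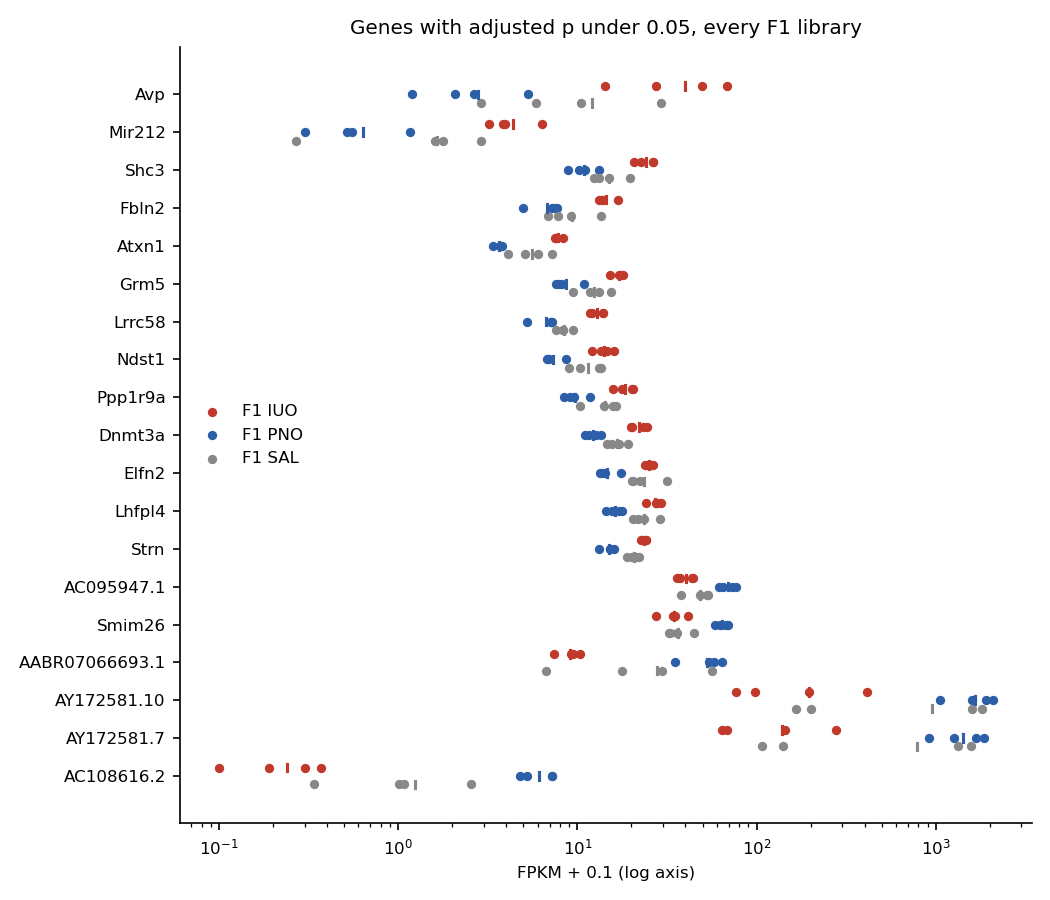
FPKM + 0.1 on a log axis for the 19 genes with an adjusted p under 0.05, with 1 point per F1 library (red IUO, blue PNO, grey SAL) and a short bar at each group mean. Red and blue points are separate for every gene shown, while the grey SAL points of AY172581.7 reach from 107 to 1569 FPKM.

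The microRNA locus Mir212 was also among the adjusted genes higher in IUO. It lies beside Mir132 and both precursors come from a neuronal, activity-regulated transcript. Their mature 3p strands are shown because they share a seed, the bases 2 to 8 in capitals, through which a microRNA pairs with its targets. The sequences and positions are those of RefSeq on build GRCr8, on the plus strand at chr10:60521811-60521832 and chr10:60522091-60522112.
rno-miR-212-3p: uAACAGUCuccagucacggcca
rno-miR-132-3p: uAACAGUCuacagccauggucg
Mir212 had 6.27, 3.84, 3.13 and 3.73 FPKM in IUO and 1.07, 0.42, 0.45 and 0.2 in PNO (log2 fold change 2.90 ± 0.41, adjusted p = 0.0468), with no overlap. The SAL libraries, at 1.67, 0.17, 1.5 and 2.81 FPKM, all lay under the lowest IUO library. Mir132 had 7.34, 0.67, 2.51 and 0.11 FPKM in IUO and 1.18, 0.32, 1.61 and 0.23 in PNO, which overlapped (log2 fold change 0.84 ± 1.02, adjusted p = 0.730). The FPKM of a locus this short may rest on few fragments.

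Of the 8 expressed hypothalamic markers, Avp, Oxt, Hcrt and Trh rose in IUO and none fell, while 4.28% of all genes tested rose. Avp and Oxt, neighbouring genes that encode vasopressin and oxytocin, are made in magnocellular and parvocellular neurons of the hypothalamus, and Hcrt encodes the orexin (hypocretin) precursor of lateral hypothalamic neurons. The promoters of these 3 genes are shown because their transcripts had the largest group differences among the expressed hypothalamic markers. Each runs from 250 bases before to 50 after the RefSeq start on GRCr8, 5′ to 3′, and capitals mark TATAAA, the cAMP-response half-site TGACG, the E-box CACGTG and the AP-1 motif TGANTCA, searched on both strands. The Avp window is chr3:138248473-138248772 on the minus strand, the Oxt window chr3:138235504-138235803 on the plus strand and the Hcrt window chr10:86191475-86191774 on the minus strand.
Avp: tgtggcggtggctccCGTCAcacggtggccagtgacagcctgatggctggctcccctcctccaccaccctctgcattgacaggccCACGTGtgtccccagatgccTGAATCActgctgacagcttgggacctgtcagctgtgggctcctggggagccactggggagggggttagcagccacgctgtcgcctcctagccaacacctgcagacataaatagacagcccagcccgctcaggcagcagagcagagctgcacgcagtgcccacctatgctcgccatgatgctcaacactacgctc
Oxt: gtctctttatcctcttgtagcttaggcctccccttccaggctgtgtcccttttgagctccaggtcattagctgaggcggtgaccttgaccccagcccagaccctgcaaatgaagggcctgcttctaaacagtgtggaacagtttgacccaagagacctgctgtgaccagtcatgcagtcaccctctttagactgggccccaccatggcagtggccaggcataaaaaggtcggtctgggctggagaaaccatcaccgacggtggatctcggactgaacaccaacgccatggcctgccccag
Hcrt: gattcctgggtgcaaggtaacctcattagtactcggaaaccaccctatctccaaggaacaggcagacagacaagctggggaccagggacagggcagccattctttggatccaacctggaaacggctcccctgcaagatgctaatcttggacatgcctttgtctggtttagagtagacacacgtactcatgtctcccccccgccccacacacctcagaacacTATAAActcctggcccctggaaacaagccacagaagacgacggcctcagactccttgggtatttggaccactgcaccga
Of 33469 RefSeq promoters of this length, 14.2% held TATAAA, 21.2% TGACG, 6.42% CACGTG and 7.33% TGANTCA. The Avp window held the last 3 of these, the Hcrt window held TATAAA and the Oxt window held none of them.

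Avp had 68.2, 27.2, 14.2 and 49.4 FPKM in IUO and 1.98, 1.09, 5.18 and 2.56 in PNO (log2 fold change 3.80 ± 0.54, adjusted p = 0.0468). Its SAL libraries had 10.4, 5.8, 29.01 and 2.8 FPKM, so SAL overlapped both groups although IUO and PNO did not overlap. Oxt had 23.03, 34.6, 13.4 and 42.9 FPKM in IUO and 0.34, 1.81, 2.54 and 6 in PNO, also without overlap (log2 fold change 3.77 ± 0.70, adjusted p = 0.0852). Hcrt had 0.87, 41.2, 9.28 and 41.3 FPKM in IUO and 0.38, 1.31, 2.58 and 0.61 in PNO (log2 fold change 3.39 ± 1.12, adjusted p = 0.194). IUO replicates 2 and 4 carried most of the Hcrt signal, and IUO replicate 1 lay inside the PNO range. Trh, which encodes thyrotropin-releasing hormone, had 5.55, 10.02, 25.7 and 17.9 FPKM in IUO and 3.26, 4.42, 7.51 and 4.43 in PNO (log2 fold change 1.42 ± 0.44, adjusted p = 0.179), with some overlap. Oxt, Hcrt and Trh passed the rule but not the adjustment.

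The median log2 fold change of the 8 markers was 0.88, against 0.05 over all expressed genes. Pomc, Crh, Gal and Cartpt, which encode other peptides made in the hypothalamus and elsewhere, did not pass. Pmch, the precursor of melanin-concentrating hormone, was not expressed by the 1 FPKM criterion, with 0.09, 25.8, 4.59 and 22.6 FPKM in IUO and at most 0.72 in PNO. Pmch, like Hcrt, was highest in IUO replicates 2 and 4 and lowest in IUO replicate 1. Otp, a transcription factor of neuroendocrine hypothalamic neurons, was likewise below the criterion, with 2.21, 1.73, 0.96 and 2.04 FPKM in IUO and at most 0.54 in PNO. Pmch and Otp both passed the rule (log2 fold changes 3.73 and 2.81, limma adjusted p = 0.243 and 0.110). The count of 4 held without any 1 library. Over the 17 hypothalamic markers that were tested, the mean log2(FPKM + 0.1) was 0.98, 1.73, 1.31 and 1.90 in the IUO libraries and -0.16, 0.04, 0.48 and 0.32 in the PNO libraries, a difference of 1.31 without overlap (two-sided exact permutation p = 0.0286, the smallest that 4 against 4 can give, and 0.214 adjusted over 15 marker lists). The marker lists were chosen with earlier results of these data known, so their p-values are not independent evidence. The hypothalamic list also holds genes that the study took to RT-PCR, among them Avp, Oxt, Hcrt, Pmch and Otp. The summed FPKM of the list ran from 136 to 239.6 in IUO and from 51.5 to 86.3 in PNO. Of the hypothalamic transcription factors in the list, Rax and Nkx2-4 were at 0 in all 8 libraries and Sim1 averaged 0.0675 FPKM in IUO and 0.01 in PNO. Lhx5 had 0.41, 0.82, 0.67 and 1.28 FPKM in IUO and 0.11, 0.12, 0.23 and 0.11 in PNO, Lhx1 averaged 0.26 and 0.0725, Hmx2 0.17 and 0.06, and Hmx3 0.0875 and 0.0225. Others did not go this way, as Agrp averaged 0.75 FPKM in IUO and 0.90 in PNO, Hdc 0.365 and 0.46, and Nr5a1 0 and 0.0175. Tbx3 averaged 0.68 and 0.65, Fezf1 0.48 and 0.235, and Ghrh 1.24 and 0.87. Whether the amount of hypothalamic tissue in the dissections had a part in the peptide values was not tested.

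Thalamic and habenular markers moved the other way. Of 14 expressed markers, 9 fell in IUO and none rose (median log2 fold change -1.37), while 2.80% of all genes tested fell. Leaving out any 1 library left 6 to 12 lower. Slc17a6, the vesicular glutamate transporter of thalamic relay neurons, had 6.56, 8.44, 19.7 and 31.8 FPKM in IUO and 32.7, 92.5, 32.8 and 58.4 in PNO (log2 fold change -1.84 ± 0.51, adjusted p = 0.150). It was the only marker of the list without overlap. Tcf7l2, a Wnt effector that specifies thalamic neurons, had 11.5, 12.1, 35.7 and 59.8 FPKM in IUO, 51.5, 138, 60.8 and 96.7 in PNO and 63.8, 36.96, 12.3 and 5.2 in SAL (log2 fold change -1.78 ± 0.54, adjusted p = 0.169). Values spread widely within each group, with IUO replicate 4 above PNO replicate 1. Lef1, Gbx2 and Lhx9, transcription factors of the developing thalamus, fell by 1.37, 1.70 and 2.66 on the log2 scale, and Ntng1, which encodes the axonal adhesion protein netrin-G1, fell by 1.59. The nicotinic subunit genes Chrnb4 and Chrna3, strongly expressed in the medial habenula, fell by 2.15 and 1.16. Chrnb4 had 1.06, 0.54, 0.45 and 0.75 FPKM in IUO and 2.6, 4.79, 1.82 and 5.15 in PNO, without overlap. None of these thalamic and habenular genes passed the adjustment. The mean log2 level of the list was 1.06, 1.51, 2.67 and 3.02 in IUO and 2.77, 3.95, 3.15 and 3.67 in PNO (difference -1.32, exact permutation p = 0.0571, adjusted 0.214), and the summed FPKM ran from 103 to 382 in IUO and from 255 to 571 in PNO. With this level as a covariate, 592 expressed genes passed the rule and 0 stayed under an adjusted p of 0.05 (limma, 2115 at an unadjusted p under 0.05, where 16.5% of all genes tested were without the covariate).

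**Figure D3:**
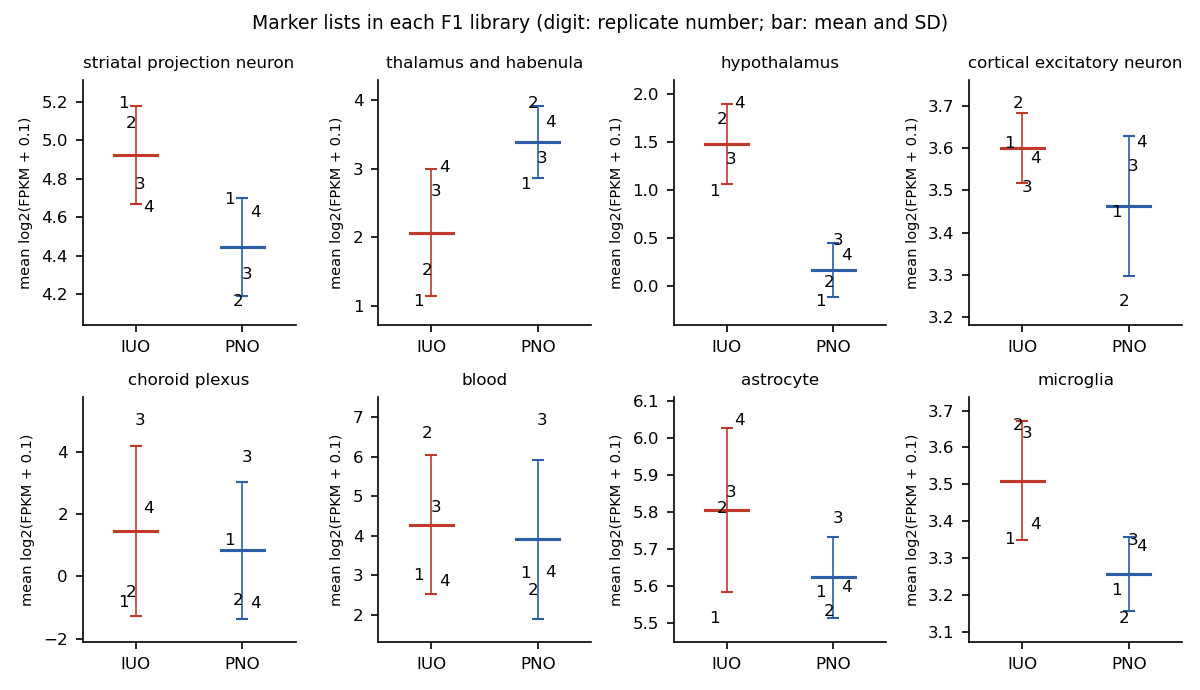
Mean log2(FPKM + 0.1) of 8 marker lists (y axes, each on its own scale) in the F1 IUO and PNO libraries, where each digit is a library by replicate number and the bars give the mean and SD of 4 libraries. The hypothalamus list is separate between the groups, and the microglia list is so with hardly a gap. The thalamus list runs from 1.06 to 3.95, and choroid plexus and blood lists vary as much within as between groups.

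Part of the striatal projection neuron genes were higher in IUO than in PNO. Of 22 markers, 11 rose and none fell (4.28% of all genes tested rose), 7 did not overlap between the groups, and the median log2 fold change was 0.54. Their mean log2 level was 5.19, 5.09, 4.77 and 4.65 in IUO and 4.69, 4.16, 4.30 and 4.62 in PNO, a difference of 0.48 (exact permutation p = 0.0571, adjusted 0.214). The SAL libraries averaged 4.92 and ran from 4.17 to 5.38, beside means of 4.92 in IUO and 4.45 in PNO. The thalamic level ran the other way in the IUO and PNO libraries, and with it as a covariate 4 of the 22 rose and the median was 0.28. Leaving out any 1 library left 7 to 11 higher. Adcy5, the main striatal adenylyl cyclase, which makes cAMP downstream of dopamine and opioid receptors, had 69.9, 74.9, 65.4 and 77.04 FPKM in IUO and 42.6, 34.8, 48.5 and 47.4 in PNO (log2 fold change 0.74 ± 0.12, adjusted p = 0.0695). Ppp1r1b, which encodes the dopamine- and cAMP-regulated phosphoprotein DARPP-32, had 488, 483, 357 and 343 FPKM in IUO and 296, 208, 266 and 291 in PNO (log2 fold change 0.65 ± 0.17, adjusted p = 0.134). Neither overlapped between the groups. Genes tied to D2 neurons were among those that rose, with log2 fold changes of 0.67 for Drd2, 0.62 for Penk, 0.75 for Gpr6 and 0.73 for the adenosine receptor gene Adora2a. Drd1 and Tac1, tied to D1 neurons, did not pass (log2 fold changes 0.26 ± 0.15 and 0.04 ± 0.23), whereas Pdyn, also of D1 neurons, did. The difference between D1 and D2 genes was not tested.

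Among opioid genes, 3 of 7 expressed members rose, none fell, and 4 lay wholly higher, against 4.28% and 6.26% of all genes tested. Pdyn, the dynorphin precursor, had 45.2, 60.1, 38.3 and 42.96 FPKM in IUO, 25.5, 22.3, 19.1 and 30.6 in PNO and 20.4, 40.5, 60.99 and 55.5 in SAL (log2 fold change 0.93 ± 0.18, adjusted p = 0.0853). IUO lay above PNO throughout and SAL overlapped both. Penk, the enkephalin precursor, had 249, 326, 229.8 and 249 FPKM in IUO and 194, 136, 176 and 179.6 in PNO (log2 fold change 0.62 ± 0.15, adjusted p = 0.123). Oprd1, the delta opioid receptor gene, was low, with 2.34, 1.49, 1.38 and 1.44 FPKM in IUO and 0.89, 0.13, 1.1 and 0.53 in PNO (log2 fold change 1.42 ± 0.49, adjusted p = 0.211). The nociceptin receptor gene Oprl1 did not overlap but fell short of the 1.5-fold limit (log2 fold change 0.40 ± 0.13). The kappa receptor gene Oprk1 had a log2 fold change of 0.51 ± 0.23 and did not pass. Oprm1, which encodes the mu receptor on which oxy acts, was below the expression criterion, with 0.28, 0.23, 0.26 and 0.39 FPKM in IUO and 0.13, 0.13, 0.09 and 0.27 in PNO, and its difference of 0.64 ± 0.39 did not pass. No opioid gene passed the adjustment over all genes, and with the thalamic level as a covariate 1 of the 7 passed the rule.

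Glutamate receptor and postsynaptic genes were higher in part. Beside them, 4.28% of all genes tested rose and 2.80% fell, and 6.26% lay wholly higher and 4.20% wholly lower. Of 18 AMPA, NMDA, kainate and delta receptor subunits, Gria1, Grik3, Grin3b and Grin2b rose, with log2 fold changes of 0.63, 0.90, 0.96 and 0.58, and none fell (median 0.34). Gria1, an AMPA receptor subunit, had 32.3, 31.2, 36.9 and 40.1 FPKM in IUO and 21.3, 17.4, 31.02 and 22.5 in PNO, without overlap. Grm5 was the only one of 7 metabotropic receptor genes to pass. Of 39 postsynaptic scaffold and plasticity kinase genes, Dlg2, Prkcb, Dlgap2 and Shisa6 rose and none fell, 14 lay wholly higher in IUO and 1 wholly lower, and the median was 0.32. Dlg2, which encodes the scaffold PSD-93, had 29.1, 36.6, 32.6 and 31.6 FPKM in IUO and 20.4, 15.6, 15.97 and 22.7 in PNO (log2 fold change 0.81 ± 0.14, adjusted p = 0.0761). The presynaptic release list moved little under the rule, with 1 of 44 higher (Sv2c), 1 lower (Slc17a6, also a thalamic marker) and a median of 0.14. Of these 44, 6 lay wholly higher in IUO and 1 wholly lower.

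Channel and second-messenger lists differed in their counts, beside 4.28% higher and 2.80% lower over all genes tested. Of 34 voltage-gated sodium, calcium and HCN channel genes, 6 rose (Scn4b, Cacna1e, Cacna1i, Scn2b, Cacna1c and Cacna1b) and none fell. Scn4b, the sodium channel beta subunit enriched in striatum, had 16.2, 22.4, 15.2 and 15.9 FPKM in IUO and 10.6, 8.06, 7.18 and 10.6 in PNO (log2 fold change 0.93 ± 0.18, adjusted p = 0.0853). Of 35 voltage-gated potassium channel genes, Kcng1, Kcnf1, Kcna5 and Kcnq3 rose while Kcnip4 and Kcnd3 fell. Of 26 inward rectifier, two-pore and calcium-activated potassium channel genes, Kcnj2 alone rose and none fell. Of 47 G protein and adenylyl cyclase genes, 8 rose, led by Adcy5 and Adcy1, and 2 fell, Rgs16 and Gng8, which are also among the thalamic and habenular markers. Adcy1, a calcium-stimulated adenylyl cyclase, had 20.1, 17.5, 22.7 and 22.9 FPKM in IUO and 6.89, 6.39, 10.98 and 11.5 in PNO (log2 fold change 1.25 ± 0.21, adjusted p = 0.0721). Of 20 GABA genes, Gabrb2, Gabrg3 and the vesicular transporter gene Slc32a1 rose and none fell. The thalamic level moved with these calls too. With it as a covariate, 3 of the 18 ionotropic glutamate receptor genes, 2 of the 39 scaffold genes, 3 of the 34 sodium and calcium channel genes, 6 of the 47 G protein genes and 1 of the 20 GABA genes rose. After upper-quartile rescaling these counts were 2, 3, 2, 6 and 2.

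**Figure D4:**
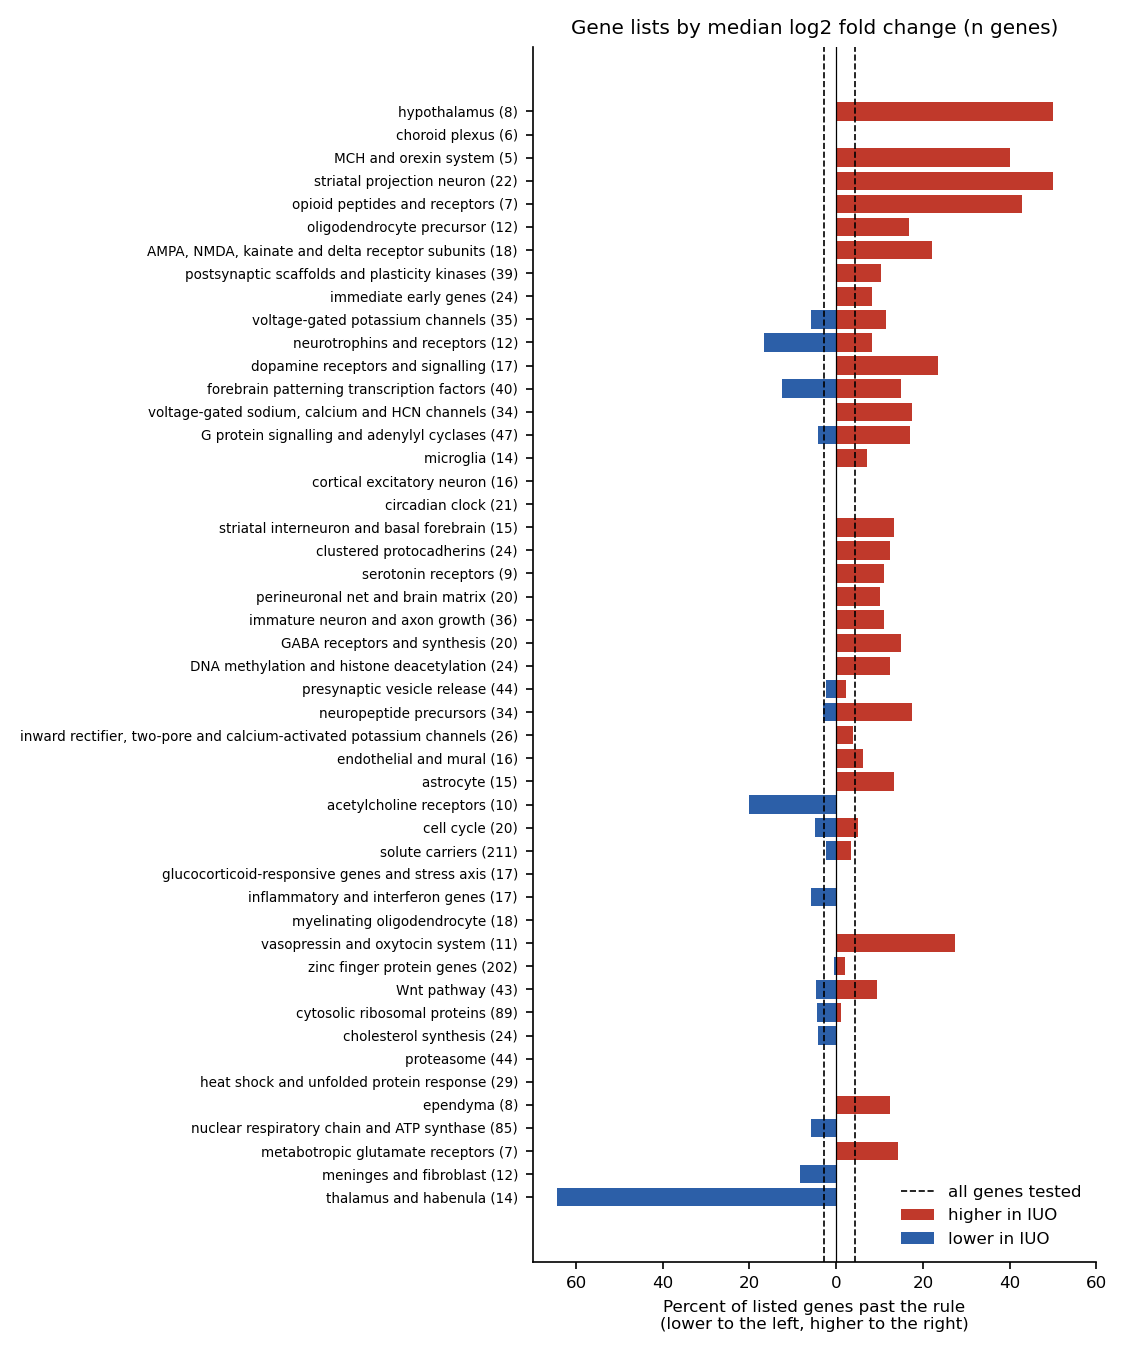
Share of each gene list past the rule, in percent of its expressed genes (number in brackets), with genes higher in IUO to the right in red and lower to the left in blue, ordered by the median log2 fold change. Dashed lines mark the 4.28% higher and 2.80% lower over all genes tested. The thalamus and habenula list reaches 64.3% lower and the striatal projection neuron and hypothalamus lists 50% higher.

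Tet3, a methylcytosine dioxygenase gene, had 10.6, 6.22, 6.63 and 4.89 FPKM in IUO and 3.51, 2.45, 3.5 and 4.09 in PNO (log2 fold change 1.01 ± 0.25, adjusted p = 0.131). It rose without overlap, as Dnmt3a did, and none of 24 genes of DNA methylation and histone deacetylation fell (median 0.14). Of all genes tested, 4.28% rose and 2.80% fell. In the neurotrophin list, Shc3 rose while the ligand genes Bdnf and Ntf3 fell. Bdnf, whose protein supports synaptic growth, was low, at 0.73, 1.04, 0.89 and 0.75 FPKM in IUO and 1.14, 1.95, 2.01 and 1.58 in PNO (log2 fold change -0.88 ± 0.26, adjusted p = 0.159). Of 24 immediate early genes, Egr3 and Egr2 rose with overlap, and Fos and Arc did not pass (log2 fold changes 0.15 ± 0.29 and 0.31 ± 0.24).

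Some nuclear genes of mitochondrial energy metabolism were lower in IUO. Of 85 nuclear genes for respiratory chain and ATP synthase subunits, 5 fell and none rose, 16 lay wholly lower and none wholly higher, against 2.80% lower and 4.20% wholly lower over all genes tested. Of the 85, 67 had a negative log2 fold change (median -0.16). Ndufa3, a complex I subunit gene, had 353, 445, 436 and 329 FPKM in IUO and 575, 648, 549 and 729 in PNO (log2 fold change -0.68 ± 0.14, adjusted p = 0.105). Uqcrb, a complex III subunit gene, had 144, 149.8, 128 and 109 FPKM in IUO and 205, 214, 167 and 252 in PNO (log2 fold change -0.65 ± 0.15, adjusted p = 0.112). Of 44 proteasome genes none passed the rule, yet 8 lay wholly lower and none wholly higher. Of 89 cytosolic ribosomal protein genes, Rpl30, Rps27l, Rpl39 and Rps13 fell, 1 of 2 entries of Rpl7a rose and the median was -0.02, and multiple copies of these genes can share reads. None of the 13 mitochondrially encoded genes on the list used here passed the rule (median -0.30), and other mitochondrial transcripts were not listed.

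Calls also moved with the genomic span of a gene. Spans were found by symbol in the RefSeq annotation of GRCr8 for 88.4% of the expressed genes. In the fifth with the longest spans, 7.77% of genes rose and 1.86% fell, and 15.6% lay wholly higher against 3.47% wholly lower in IUO. In the fifth with the shortest spans, 3.67% rose and 2.60% fell, and 3.80% lay wholly higher against 5.20% wholly lower. The part that span had in the calls was not tested.

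None of 16 cortical excitatory neuron, 18 myelinating oligodendrocyte, 6 choroid plexus or 3 hemoglobin genes passed the rule, which 4.28% of all genes tested passed as higher and 2.80% as lower. Among 12 markers of oligodendrocyte precursors, Gpr17 and Cspg4 rose, and Gpr17, a receptor of committed precursors, had 44.8, 50.5, 60.5 and 51.1 FPKM in IUO and 32.3, 27.1, 35.5 and 34.1 in PNO (log2 fold change 0.68 ± 0.12, adjusted p = 0.0848). Among 15 astrocyte markers, Slc1a2 and Fgfr3 rose. Slc1a2, the main glial glutamate transporter gene, had 85.2, 135, 157 and 109 FPKM in IUO and 61.1, 50.8, 56.95 and 75.7 in PNO (log2 fold change 0.97 ± 0.19, adjusted p = 0.0884). Among 14 microglial markers, the complement gene C1qb rose (49.7 ± 5.096 against 32.8 ± 4.76 FPKM, SD, n = 4). The mean log2 level of 15 microglial markers was 3.35, 3.66, 3.64 and 3.39 in IUO and 3.21, 3.14, 3.35 and 3.33 in PNO, which differ by 0.25 with hardly a gap (exact permutation p = 0.0286, adjusted 0.214). After upper-quartile rescaling the microglial levels of IUO and PNO overlapped. None of 17 glucocorticoid and stress axis genes, 29 heat shock genes or 21 clock genes passed the rule. Of 17 inflammatory and interferon genes, Ifit2 fell. A single call, as in the microglial and inflammatory lists, is too few to set apart from the shares over all genes tested.

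Part of the genes that the study measured by RT-PCR were listed here, mostly hits it chose from these libraries and some followed up for the orexin system, so their directions are not independent evidence. Of those expressed, Avp, Oxt, Pdyn and Hcrt rose and Tcf7l2 fell, as described above. Hcrtr1, the orexin receptor gene, had 3.23, 2.07, 1.54 and 2.57 FPKM in IUO and 1.57, 1.95, 0.64 and 2.25 in PNO and did not pass (log2 fold change 0.60 ± 0.38, adjusted p = 0.470). Nptx2, a neuronal pentraxin gene, had 19.2, 19.1, 24.9 and 40.7 FPKM in IUO and 31.5, 36.2, 42.5 and 30.1 in PNO, and its difference of -0.49 ± 0.23 did not pass. The hemoglobin gene Hba-a2, listed under 2 identifiers, varied over 10-fold within each group and did not pass. Below the expression criterion, Hcrtr2, the other orexin receptor gene, had 0.2, 0.37, 0.52 and 0.59 FPKM in IUO and 0.92, 1.45, 0.84 and 0.77 in PNO and fell by the rule without overlap (log2 fold change -1.11, limma adjusted p = 0.189). Cdh1, which encodes E-cadherin of epithelia, had at most 0.21 FPKM in IUO and from 0.38 to 1.22 in PNO.

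In the F2 generation the same comparison of IUO against PNO called 226 expressed genes higher and 168 lower of 13663 tested (1.59% and 1.79% of all 17090 genes tested in F2). None had an adjusted p under 0.05 (limma, 1025 expressed genes at an unadjusted p under 0.05, and 7.07% of all genes tested). F1 and F2 libraries are different animals, although F2 pups were born to F1 females of the same exposure, which were not dosed themselves. Their sires had no part in the exposures. The F2 groups also differed in 2 expressed Y-linked genes, both past the rule, with a median log2 fold change of 4.04 against -1.28 in F1. For 16 cortical excitatory neuron markers the median was 1.12 in F2 and 0.18 in F1. F2 IUO replicate 4 and F2 PNO replicate 1 had the fewest genes at 1 FPKM or more of all 24 libraries (12583 and 12458). The part that sex, cortical tissue or these libraries had in the F2 values was not tested. Of the 610 genes higher in F1 IUO, 32 were also called higher in F2, which is 5.25% of the F1 list and 14.2% of the F2 list. Of the 314 tested genes lower in F1 IUO, 14 were also called lower, which is 4.46% of them and 8.33% of the F2 list. Genes past the rule without overlap were 3.89% of those tested in F1 and 1.48% in F2. 9 genes, or 0.0659%, met this in F1 and again in F2 with the same sign, 0 genes met it with opposite signs, and these counts were not tested. Among the 9 is AABR07000738.1, which counted as expressed through the F1 PNO libraries alone and so had to differ in F1. Mir212 was also among the 9, with 4, 8.2, 2.86 and 4.1 FPKM in F2 IUO and 0, 1.55, 0 and 1.46 in F2 PNO (log2 fold change 3.50 ± 0.99), where a pair of PNO libraries was listed at 0. Vstm2l, a secreted immunoglobulin-domain protein gene, had 143, 117, 128 and 158 FPKM in F1 IUO and 74.03, 68.6, 116 and 74.2 in F1 PNO, and then 159.8, 146, 165 and 164 in F2 IUO and 82.5, 85.97, 87.8 and 108 in F2 PNO. Prr7, which encodes a postsynaptic membrane protein, had 109, 85.5, 82.9 and 104 FPKM in F1 IUO and 53.7, 45.7, 82.4 and 57.9 in F1 PNO, and then 113, 124, 94.4 and 122 in F2 IUO and 44.7, 54.2, 61.6 and 75.9 in F2 PNO. In both genes 1 F1 PNO library, replicate 3, came close to the IUO range. Vstm2l and Prr7 were chosen for mention after their values were seen.

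Other genes that differed in F1 overlapped between the groups in F2. Grm5 had 5.91, 12.9, 8.83 and 3.09 FPKM in F2 IUO and 0.59, 9.08, 7.13 and 11.3 in F2 PNO, with F2 PNO replicate 1 and F2 IUO replicate 4 far below the rest. Dnmt3a had 9.31, 12.7, 11.9 and 3.09 FPKM in F2 IUO and 2.44, 15.03, 11.5 and 16.4 in F2 PNO, with the same pair of libraries lowest. Apc, at 0.83 and 8.56 FPKM, and Lrrc58, at 0.36 and 0.08, were also lowest in F2 IUO replicate 4 and F2 PNO replicate 1. Such libraries, present in each F2 group, widen the spread of these genes, whereas Pdyn was not low in them. Avp had 4.44, 16.1, 85.6 and 3.97 FPKM in F2 IUO and 47.6, 1.92, 1.48 and 5.5 in F2 PNO, which overlapped. Pdyn had 21.9, 41.2, 28.9 and 53.03 FPKM in F2 IUO and 59.3, 40.9, 36.4 and 31.7 in F2 PNO, also overlapping (log2 fold change -0.25 ± 0.29). The difference between generations, tested as an interaction over 16 libraries, had an adjusted p under 0.05 for 0 genes (limma, 828 expressed genes at an unadjusted p under 0.05, and 5.87% of all genes tested), so a difference between F1 and F2 in these genes was not shown. The interaction of Pdyn was -1.19 on the log2 scale (limma adjusted p = 0.77).

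**Figure D5:**
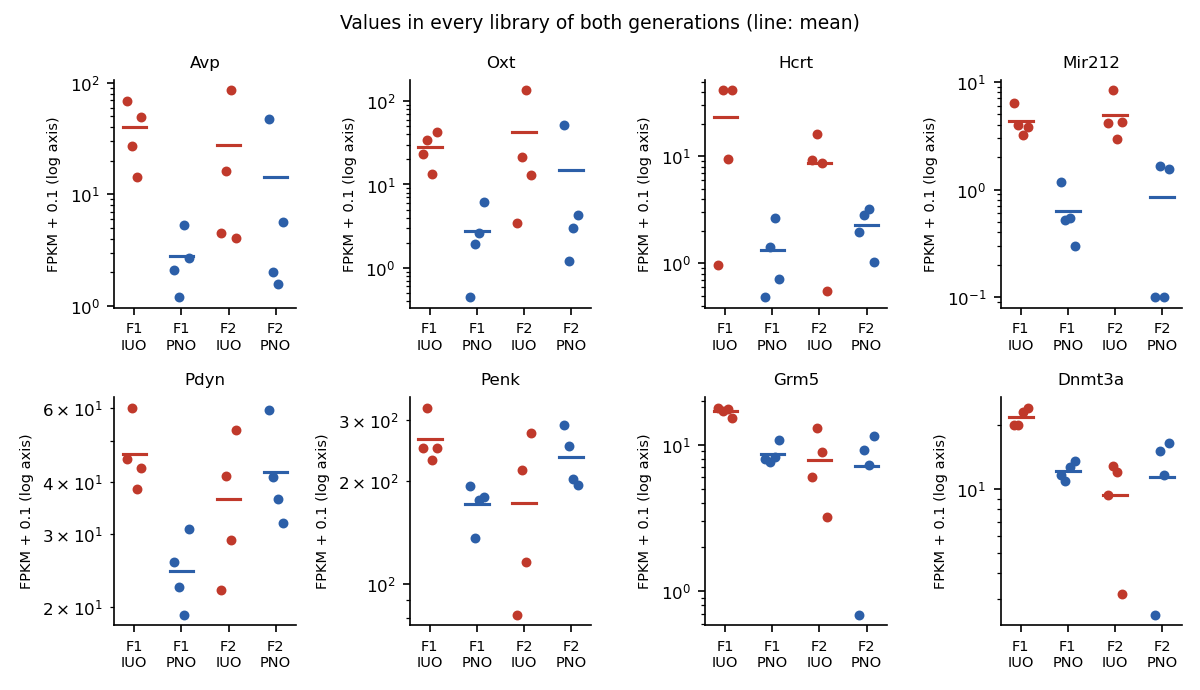
FPKM + 0.1 on a log axis for 8 genes in every F1 and F2 library of the IUO (red) and PNO (blue) groups, with a line at each mean. Mir212 is separate between IUO and PNO in both generations, whereas the other 7 genes overlap in F2, and F2 PNO replicate 1 is the lowest point of Grm5 at 0.59 FPKM.

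Set beside SAL, the mean of the SAL libraries lay between the IUO and PNO means for 536 of the 610 genes higher in IUO and for 262 of the 317 lower. The genes were chosen for the gap between IUO and PNO, and over all expressed genes the SAL mean lay between for 46.3%. Of the 610 and the 317 genes, it lay at or beyond the IUO mean for 56 and 44, and at or beyond the PNO mean for 18 and 11. All 4 SAL libraries were high in Y-linked genes, with a mean log2 level from 3.07 to 3.40, unlike the mixed IUO and PNO groups. SAL libraries spread widely for the regional markers, from 1.16 to 3.03 in the mean log2 level of the thalamic list. The SAL mean of this list was 2.06, beside 2.06 in IUO and 3.38 in PNO.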

How the data were processed

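RNA from P14 NAc was sequenced in 4 libraries per group, and per the labels each group was assigned by title and treatment. The authors deposited FPKM per gene for each library. HISAT2, SAMtools, StringTie and edgeR are named in the submitters' processing notes, without versions, and the genome build is not given in the sources used here. Read depth is not given with FPKM, so no counting error could be attached. Values were analysed as log2(FPKM + 0.1) with limma 3.58.1 (R 4.3.3, empirical Bayes with trend), for genes with at least 0.1 FPKM in 4 or more of the 8 F1 IUO and PNO libraries, with Benjamini-Hochberg adjustment over 17306 genes. Fold changes on this scale understate the change of low genes. A list was described by counts and medians of its expressed members. Marker list levels were compared by two-sided exact permutation tests. The model was tested on simulated data with 200 genes changed in 17306, and 41.0% of those at a log2 fold change of 1 and 76.5% of those at 2 were recovered at an adjusted p under 0.05. Named genes were those under the adjusted threshold, the 12 genes with the smallest p in each direction among those past the rule, without overlap and at 5 FPKM or more on average, genes of the fixed lists and part of the genes the study measured by RT-PCR. The expressed genes, lists and rules were chosen with earlier results of these data known. Whether same-numbered libraries share more than a number is not given, so p-values measure the spread between libraries. Alternatives were other pseudocounts, filters and scalings, all 24 libraries, a replicate block, marker covariates and leaving out each library. Reference sequences and spans came from RefSeq tables of GRCr8, matched by symbol, and Penk had no promoter entry. One item is not reported here.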

Additional observations from a re-analysis of the deposited data

Results flagged for a closer look

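In 98 groups of 4 libraries (34 genes and 15 marker lists in F1 IUO and F1 PNO), 8 had 1 library far from the other 3 by Dixon's ratio of the gap to the range, and chance alone flags about 1 in 20 groups. The ratio was 0.961 for Atxn1 in IUO, where replicate 1 was higher than 3 nearly equal libraries, and 0.884 for Ndst1, 0.943 for Lrrc58 and 0.848 for Fbln2 in PNO. Fbln2 in IUO had a ratio of 0.845, from replicate 1. These genes were named for their adjusted p, and their separation between IUO and PNO already includes the flagged libraries, so it is no further check. Both entries of Hba-a2 in PNO, with ratios of 0.879 and 0.893, and the blood marker list in PNO, with 0.895, were set apart by PNO replicate 3. No difference between the generations passed the adjustment.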

How the results depend on the processing

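The files hold no depth, so the precision of low genes is unknown. The count of genes under the rule was 927, and it was 592 with a thalamus and habenula covariate, 605 with a cortical covariate, 242 at a 2-fold limit and between 633 and 1233 without 1 library. The count with an adjusted p under 0.05 was 19, and it was 6 with log2(FPKM + 1), 3 without the filter on low values, 34 after upper-quartile rescaling, 2 with all 24 libraries in 1 fit, 3 without the trend, 0 with the thalamus or the cortical covariate, 8 with a Y-linked covariate, 135 at a limit of 0.1 and between 2 and 5 without 1 library. Rescaling to the same sum without mitochondrially encoded genes, chosen after seeing the data, gave 72. The cause of these shifts was not tested. The split of calls was 610 higher and 317 lower, 362 and 288 with all libraries, and 478 and 411 after upper-quartile rescaling. With a replicate block the adjusted count was 2 and 959 genes passed the rule. The labels do not tie equal numbers to a shared litter or day, so the numbers were not treated as pairs. Deviations of same-numbered libraries correlated at 0.116, 0.132, 0.133 and -0.073 for replicates 1 to 4. Those of libraries with unlike numbers correlated at -0.174 to 0.215. Genes without overlap numbered 1635 and between 1788 and 3189 without 1 library. The interaction with generation called 1 expressed gene, AC108616.2, with log2(FPKM + 1) and 0 otherwise. AC108616.2 counted as expressed through the F1 PNO libraries alone, so this call is a description only. Of 122 named genes, 40 kept their direction and their side of the rule under every alternative, 45 lost the call with the thalamus covariate and 41 with all libraries. Both entries of Hba-a2 reversed, to -0.61 and -0.38 with the thalamus covariate, -0.36 and -0.55 with the cortical covariate, and without 1 library they ran from -0.33 to 1.36 and from -0.50 to 1.27. Marker list levels (log2, IUO minus PNO) without 1 library ran from -1.64 (without IUO replicate 4) to -0.98 for thalamus, 0.20 to 0.31 for microglia, -0.56 to 1.61 for choroid plexus, -0.40 to 1.37 for blood, -0.10 to 0.26 for myelinating oligodendrocytes, -0.003 to 0.23 for oligodendrocyte precursors and -0.41 to 0.14 for ependyma, while the other lists kept their sign. After upper-quartile rescaling the microglial difference was 0.20, with its groups overlapping, and the myelin difference -0.0119.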

Other observations

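Several developmental gene groups held calls between F1 IUO and F1 PNO, none under the adjusted threshold. Of 36 genes of immature neurons and axon growth, 4 rose in IUO and none fell (median log2 fold change 0.14). Over all genes tested 4.28% rose and 2.80% fell. Ntn1, which encodes the axon guidance cue netrin-1, had 8.77, 9.11, 10.3 and 11.5 FPKM in IUO and 5.98, 4.15, 7.38 and 6.07 in PNO, and its receptor gene Dcc had 4.25, 3.22, 4.10 and 3.14 in IUO and 1.69, 2.25, 1.94 and 2.98 in PNO (limma log2 fold changes 0.76 and 0.72, adjusted p = 0.127 and 0.164). Neither overlapped between the groups. Sp8 and Sp9, transcription factor genes of developing striatal neurons and interneurons, also rose. Forebrain patterning transcription factors went both ways, with 6 of 40 higher and 5 lower. Those lower included the thalamic markers Lef1, Gbx2, Lhx9 and Zic4.

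Of 15 markers of striatal interneurons and basal forebrain, Nos1, which marks nitric oxide interneurons, and Lhx6, a transcription factor gene of interneurons, rose without overlap (log2 fold changes 0.77 and 1.06). Of 20 genes of perineuronal nets and brain matrix, Reln and Tnr rose. The shares over all genes tested were 4.28% higher by the rule and 6.26% wholly higher. Reln, which encodes the secreted guidance protein reelin, had 6.22, 5.59, 8.14 and 6.08 FPKM in IUO and 3.94, 3.47, 4.73 and 4.66 in PNO (log2 fold change 0.62, limma adjusted p = 0.147).

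Of 43 Wnt pathway genes, Apc, Fzd2, Lrp6 and Fzd3 rose, while Lef1 and Tcf7l2 fell, both of them thalamic markers as well (median log2 fold change 0.00). Apc, a scaffold of the complex that degrades beta-catenin, had 72.2, 68.2, 87.0 and 61.0 FPKM in IUO and 47.3, 42.1, 42.2 and 46.5 in PNO (log2 fold change 0.69, limma adjusted p = 0.0726). Of 24 cholesterol synthesis genes, Idi1, an isoprenoid isomerase gene, fell by 0.60 on the log2 scale, and 5 of the 24 lay wholly lower in IUO against 1 wholly higher. Beside the Wnt and cholesterol counts, 4.28% of all genes tested rose and 2.80% fell, and 4.20% lay wholly lower and 6.26% wholly higher.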
